A study of Mus musculus with 6 samples.

Results

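The enzymes of heme synthesis were followed in messenger RNA of bone marrow cells from mice with floxed Ppp2ca, which encodes a catalytic subunit of the phosphatase PP2A, with or without a Cre recombinase. They were chosen by gene symbol, as a list in pathway order, and 8 of the 52550 genes in the deposited tables carry these symbols: Alas1, Alas2, Alad, Uros, Urod, Cpox, Ppox and Fech. The list does not hold every enzyme of the pathway, and the remaining step is not analysed here. The knockout (KO) group had 3 libraries from mice labelled VAV1crePpp2caf/f, which carry floxed Ppp2ca alleles and a Cre recombinase under the control of Vav1, a gene active in blood cells. The wild-type (WT) group had 3 libraries from mice labelled Ppp2caf/f, which carry the same floxed alleles and no Cre that the label names, so both groups share the floxed gene. The sources used here do not give age, sex, surface markers used for sorting or any pooling of animals. The labels do not say that each library is its own animal, and p-values here reflect the variation among these 6 libraries, which may be technical.

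Heme is made in a chain of enzymes that starts and ends in mitochondria. 5-Aminolevulinate synthase joins glycine and succinyl-CoA in the matrix, cytosolic enzymes assemble the porphyrin ring, and the last enzymes act again in mitochondria, where ferrochelatase inserts iron. The first step has a housekeeping form, ALAS1, which heme itself holds back, and an erythroid form, ALAS2, which is switched on in red cell precursors and limited by iron. Myeloid cells need heme for myeloperoxidase and the phagocyte oxidase, and red cell precursors need it for hemoglobin.

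The values are normalised read counts, that is, reads per gene divided by 1 size factor per library, with 37951985 to 58692037 reads per library. Ppp2ca itself had 23728, 22419 and 24046 in KO and 32909, 33451 and 33169 in WT, so KO libraries kept 70.5% of the WT mean and the gene's reads were reduced, not absent. The files give 1 value per whole gene, so they cannot show how completely the floxed part of Ppp2ca was removed. KO is used here as the name of the labelled genotype. The cells are labelled hematopoietic stem cells, and all 8 stem cell markers looked for were read in every WT library. So were all listed markers of erythroid, granulocyte-monocyte progenitor, megakaryocyte, macrophage, B, and mast and basophil cells. Being read in every WT library therefore does not set stem cells apart. The 7 granulocyte-monocyte progenitor markers summed to between 1252852 and 1484506 normalised reads in WT, against 35015 to 45311 for the stem cell markers. These are sums over genes of unlike length and give no shares of cells. In KO 7 of the 8 stem cell markers fell (sums of 16775 to 20446), and Fgd5 was at 0 in KO replicate 1. Ly6a was not called (adjusted p = 0.555 in limma). Most of these sums was Kit, which averaged 16302 in KO and 25717 in WT. Kit kept 63.4% of its WT mean, while the other called stem cell markers kept from 4.57% (Fgd5) to 39.9% (Hlf). Megakaryocyte markers fell in 5 of 5 cases, mast cell and basophil markers in 4 of 5, B cell markers in 2 of 5 and T cell markers in 1 of 3 tested. Of all genes tested, 13.0% were lower in KO.

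The enzymes did not move together. Alas1 rose, Alas2, Alad and Urod fell, and Uros, Cpox, Ppox and Fech did not pass the test (limma on log2(value + 1), adjusted p below 0.05 over 20136 genes). That is 1 of 8 higher and 3 of 8 lower, where 10.3% of all genes tested were higher and 13.0% lower, or 23.3% in both directions. All 8 passed the filter on low values. The median log2 fold change of the 8 was −0.18, and that of all genes tested was −0.02. The counts over all genes were 2069 higher and 2622 lower, or 1337 higher and 3510 lower with all libraries scaled to equal totals. That scaling moved the median of all genes by −0.13, and quantile normalization moved it by 0.10. Alas1 kept its call under both, with log2 fold changes of 0.55 and 0.39. KO and WT values did not overlap in 5 of the 8 enzymes, against 40.9% of all genes tested. All KO values lay below all WT values in 4 enzymes, against 21.7% of all genes, and above them in 1, against 19.1%.

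**Figure D1:**
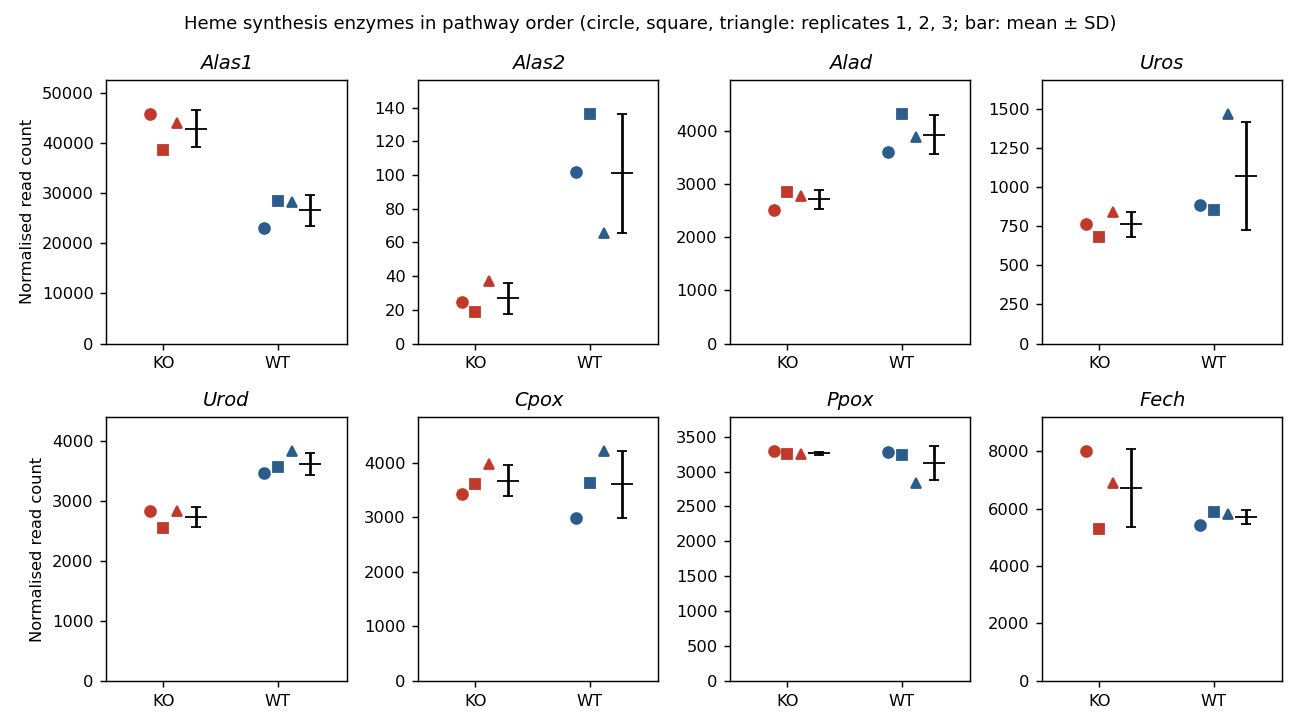
Normalised read counts of the 8 enzymes in pathway order, with 1 point per library, KO on the left of each panel, and the mean ± SD beside the points (n = 3 each). The KO points lie above all WT points for Alas1 and below them for Alas2, Alad, Uros and Urod, and the groups overlap for Cpox, Ppox and Fech.

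Alas1, the housekeeping enzyme of the first step (ENSMUSG00000032786.16, GRCm38 chromosome 9, 106233455 to 106248654, minus strand), had normalised read counts of 45711, 38615 and 44012 in KO and of 22965, 28447 and 28251 in WT. Every KO library lay above every WT library. The means were 42779 ± 3705 in KO and 26554 ± 3110 in WT (SD, n = 3 each). The log2 fold change was 0.69 ± 0.11 (SE), a 1.61-fold rise with a 95% confidence interval of 1.35 to 1.93 and an adjusted p of 0.00478 in limma. The call held in 19 of 19 alternative analyses, with an adjusted p of up to 0.0403. The granulocyte-monocyte progenitor markers were higher alongside, with sums of 1858261 to 2073152 in KO and 1252852 to 1484506 in WT. Of the 7, 6 rose, while Csf1r did not pass, where 10.3% of all genes tested were higher. Most of these sums was Mpo, which averaged 1237142 in KO and 954999 in WT. The call of Mpo held in 9 of 19 alternative analyses. The part of these markers in the rise of Alas1 was not tested. Alas1 shares 465 exon bases with the antisense gene 4930500F10Rik, which had 11.8, 33.4 and 22.4 normalised reads in KO and 9.36, 5.71 and 7.57 in WT, far below Alas1. Fewer or more cells of a type and less or more RNA per cell cannot be told apart in such bulk values.

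Alas2, the erythroid enzyme of the first step (ENSMUSG00000025270.13, chromosome X, 150547375 to 150570638, plus strand), was read at a low level throughout. It had 24.6, 18.7 and 37.1 normalised reads in KO and 101.8, 136.1 and 65.3 in WT. These rest on 23, 19 and 43 reads in KO and on 87, 143 and 69 reads in WT. The groups did not overlap, and the lowest WT library, WT replicate 3, stood at 65.3, above the highest KO library at 37.1. The log2 fold change was −1.87 ± 0.45 (SE), so that KO libraries stood at 0.27 of the WT level, with a 95% interval of 0.13 to 0.56 and an adjusted p of 0.0212 in limma. The call was lost without WT replicate 1 (log2 fold change −1.83, adjusted p = 0.0709) and without WT replicate 2 (−1.62, adjusted p = 0.0764), and with quantile normalization (−1.46, adjusted p = 0.0549). Alas2 shares 311 of its exon bases with Apex2, a DNA repair gene on the opposite strand that had 646, 815 and 493 normalised reads in KO and 324, 344 and 572 in WT. The sources used here do not say whether strand was used in counting, so reads from the shared stretch cannot be assigned to either gene.

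The ratio of Alas2 to Alas1 is free of the size factor of a library, apart from the 1 read added to each value. Its log2 value was −10.80, −10.94 and −10.17 in KO and −7.80, −7.70 and −8.74 in WT. The means were −10.64 ± 0.41 in KO and −8.08 ± 0.57 in WT (SD, n = 3 each), a difference of −2.56. The groups did not overlap, and an exact two-sided permutation test over the 20 assignments of libraries gave p = 0.1, the smallest it can give. Per kilobase of transcript, Alas1 was 1111, 1240 and 711 times as high as Alas2 in KO and 135, 125 and 259 times as high in WT. The difference of the log2 ratios lay between −2.89 and −2.37 whichever library was left out.

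**Figure D2:**
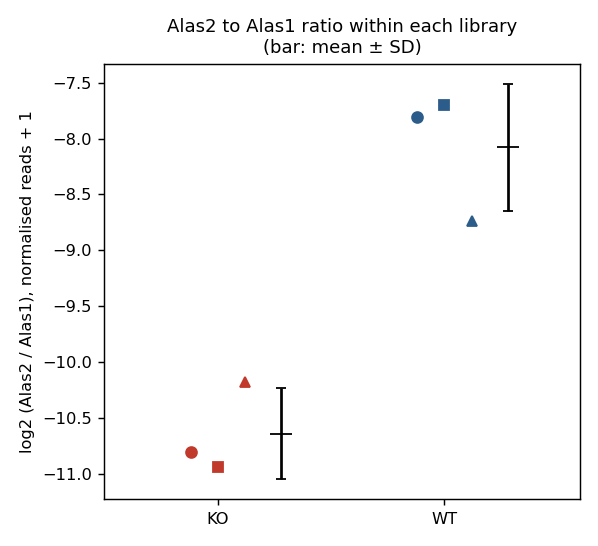
Log2 of the ratio of Alas2 to Alas1 normalised reads (1 added to each), 1 point per library, KO on the left, with the mean ± SD of 3 libraries beside the points. The 3 KO libraries lie between −10.94 and −10.17 and the 3 WT libraries between −8.74 and −7.70.

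Of the 3 cytosolic enzymes that follow, Alad and Urod fell and Uros did not pass the test. Alad, which joins 5-aminolevulinate molecules into the pyrrole porphobilinogen (ENSMUSG00000028393.10, chromosome 4, 62509169 to 62519918, minus strand), had 2516, 2858 and 2784 normalised reads in KO and 3604, 4323 and 3883 in WT. The groups did not overlap. Alad fell to 69.1% of its WT mean (log2 fold change −0.53 ± 0.10 SE, adjusted p = 0.0104 in limma), and the call held in 18 of 19 alternatives, the exception being the fit without an intensity trend (adjusted p = 0.0535).

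Urod, which removes carboxyl groups from uroporphyrinogen (ENSMUSG00000028684.14, chromosome 4, 116989965 to 116994413, minus strand), had 2825, 2545 and 2834 normalised reads in KO and 3472, 3558 and 3824 in WT. All KO libraries were below all WT libraries. Urod fell to 75.6% of its WT mean (−0.40 ± 0.09 SE, adjusted p = 0.0187 in limma). The call was lost without KO replicate 3 (adjusted p = 0.0606), WT replicate 2 (0.0517) or WT replicate 3 (0.0578), at log2 fold changes of −0.43, −0.42 and −0.36, and without the intensity trend (adjusted p = 0.0761). Uros, which closes the ring to uroporphyrinogen III (ENSMUSG00000030979.13, chromosome 7, 133686243 to 133710072, minus strand), had 765, 682 and 839 in KO and 888, 855 and 1467 in WT. The groups lay side by side without overlap, and WT replicate 3 stood far above the other WT libraries. The difference did not pass the test (−0.45 ± 0.22 SE, 95% interval −0.96 to 0.06, adjusted p = 0.19 in limma). Without WT replicate 3 the log2 fold change was −0.20 (adjusted p = 0.423).

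The last 3 enzymes, which act in mitochondria, did not pass the test. Cpox, coproporphyrinogen oxidase (ENSMUSG00000022742.5, chromosome 16, 58670208 to 58680391, plus strand), had 3421, 3617 and 3975 normalised reads in KO and 2978, 3626 and 4204 in WT. The KO values lay within the range of the WT values, and the fold change was 1.03 with a 95% interval of 0.82 to 1.28 (adjusted p = 0.874 in limma). Ppox, protoporphyrinogen oxidase (ENSMUSG00000062729.11, chromosome 1, 171275990 to 171281186, minus strand), had 3287, 3248 and 3245 in KO and 3281, 3240 and 2839 in WT. Its KO libraries were nearly level with WT replicates 1 and 2, and the fold change was 1.05 with an interval of 0.90 to 1.22 (adjusted p = 0.664 in limma). Ppox shares 791 of its exon bases, or 17.5%, with B4galt3 on the opposite strand, which had 2505, 2330 and 2315 normalised reads in KO and 1750, 1758 and 1537 in WT. Reads from that shared stretch cannot be assigned to Ppox or B4galt3, since the use of strand is not given. The level values of Ppox may thus include reads of B4galt3. The sign of neither enzyme was fixed, since both log2 fold changes were below 0 with equal library totals (−0.10 for Cpox and −0.076 for Ppox).

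Fech, ferrochelatase, which carries an iron-sulfur cluster and completes heme (ENSMUSG00000024588.8, chromosome 18, 64456550 to 64489066, minus strand), had 7990, 5276 and 6899 normalised reads in KO and 5425, 5895 and 5800 in WT. KO replicate 2 was below all WT libraries, and KO replicates 1 and 3 were above them. The fold change was 1.16 with an interval of 0.92 to 1.47 (log2 fold change 0.22 ± 0.15 SE, adjusted p = 0.345 in limma). Without KO replicate 2 the log2 fold change was 0.38 and passed the test (adjusted p = 0.0408).

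**Figure D3:**
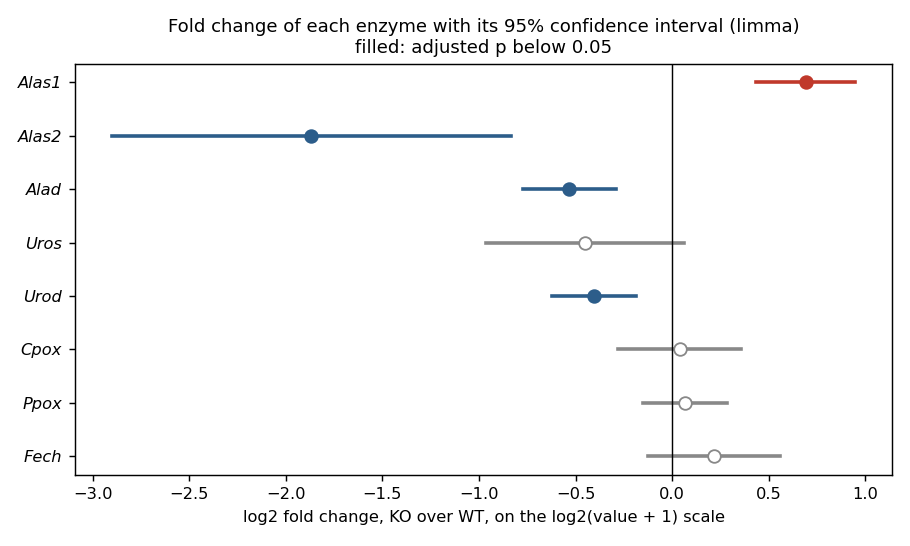
Log2 fold change of each enzyme, KO over WT, on the log2(value + 1) scale, in pathway order from the top, with 95% confidence intervals from limma (3 KO and 3 WT libraries). Filled points passed an adjusted p of 0.05: Alas1 at 0.69 on the right, and Alas2 at −1.87, Alad at −0.53 and Urod at −0.40 on the left.

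Divided by transcript length in GENCODE M21, the enzymes kept 1 order of mean levels in both genotypes. From high to low it was Alas1, Alad, Urod, Ppox, Cpox, Fech, Uros and Alas2, and it was the same with the length of all exons of a gene joined. Alas1 averaged 12586 ± 1090 normalised reads per kilobase in KO and 7812 ± 915 in WT, and Alad, the next, averaged 2181 ± 144 in KO and 3157 ± 291 in WT (SD, n = 3 each). Uros averaged 432 ± 44.6 in KO and 607 ± 195 in WT, and Alas2 averaged 13.2 ± 4.6 in KO and 49.6 ± 17.4 in WT. Some neighbours in the order did not differ beyond their spread. In KO the ranges of Urod (1709 to 1904) and Ppox (1782 to 1805) overlapped, as did those of Cpox (1105 to 1284) and Fech (803 to 1216). In WT the ranges of Fech (826 to 897) and Uros (486 to 832) overlapped. The Cpox and Fech entries of the deposited tables are of an older gene version than the annotation that gave both kinds of length. For Fech that annotation reaches down to position 64452914, while the deposited entry stops at 64456550. The length used for Fech may thus be too long and its level per kilobase too low. The places of Cpox and Fech in the order are therefore uncertain in both genotypes.

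**Figure D4:**
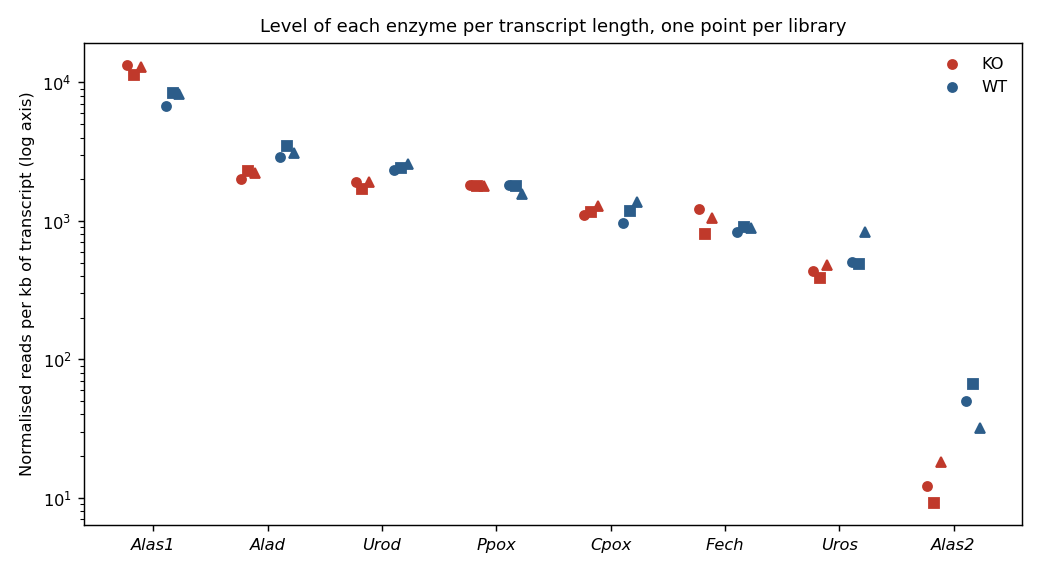
Normalised reads per kilobase of principal transcript on a log axis, 1 point per library, KO left of WT for each enzyme, ordered by the WT mean. Alas1 stands highest in both genotypes, at means of 12586 in KO and 7812 in WT, and Alas2 lowest, at 13.2 in KO and 49.6 in WT.

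Promoter sequences are shown for the enzymes that moved in opposite ways or shared a short motif. RefSeq windows from 250 bases before to 50 after a transcript start (GRCm38.p6) were found for 7 of the 8 enzymes, not for Fech. Both strands were searched for GATAA, the core that GATA1 binds, for CACCC, a core that erythroid KLF1 binds, for GCGC followed after 2 bases of any kind by a second GCGC, the core of nuclear respiratory factor 1 (NRF1), and for CACGTG, the E-box of MYC and USF factors. Of 32851 windows over all genes, 25.4% held GATAA, 57.5% CACCC, 6.23% the NRF1 core and 7.15% CACGTG. Printed below are the bases before the start that lie outside annotated UTRs, 5′ to 3′ in the gene's direction, and for Alas1, whose window overlaps an annotated UTR, only a site of 30 bases. Capitals mark a motif or its reverse complement, and in the Alas1 site only the NRF1 core, since a CACCC match there stays in lower case.
Alas2 chrX:150547167-150547374 (+ strand): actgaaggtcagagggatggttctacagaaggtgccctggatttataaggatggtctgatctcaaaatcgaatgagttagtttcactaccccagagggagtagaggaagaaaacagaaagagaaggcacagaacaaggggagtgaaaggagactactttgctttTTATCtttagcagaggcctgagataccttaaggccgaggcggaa
Cpox chr16:58669958-58670207 (+ strand): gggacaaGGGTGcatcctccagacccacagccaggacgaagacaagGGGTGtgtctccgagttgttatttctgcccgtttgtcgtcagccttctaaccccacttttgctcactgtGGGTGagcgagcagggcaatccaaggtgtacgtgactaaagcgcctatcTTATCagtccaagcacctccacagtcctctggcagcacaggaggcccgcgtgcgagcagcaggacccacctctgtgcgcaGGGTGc
Alad chr4:62520064-62520313 (- strand): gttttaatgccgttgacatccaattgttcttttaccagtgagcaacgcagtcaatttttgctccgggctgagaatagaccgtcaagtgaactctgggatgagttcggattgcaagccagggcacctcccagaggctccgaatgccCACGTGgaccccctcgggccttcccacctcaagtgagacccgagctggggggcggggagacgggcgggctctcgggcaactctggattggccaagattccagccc
Urod chr4:116994414-116994663 (- strand): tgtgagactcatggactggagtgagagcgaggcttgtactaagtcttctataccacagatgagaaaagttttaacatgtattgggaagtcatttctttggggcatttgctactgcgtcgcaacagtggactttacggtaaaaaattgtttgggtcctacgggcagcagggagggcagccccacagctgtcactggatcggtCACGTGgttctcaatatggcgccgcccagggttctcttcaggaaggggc
Alas1 chr9:106247906-106247935 (- strand): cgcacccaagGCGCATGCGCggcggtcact

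Alas2, which fell, has GATAA on the reverse strand (printed as TTATC) 86 bases before its start, and CACCC matches at 40, 35 and 30 bases, in the stretch not printed. Cpox, which did not pass the test, has a GATAA match at the same distance of 86 bases, another just after its start, and 4 CACCC matches. Uros, which did not pass either, has GATAA 68 bases before its downstream start. CACCC was also found in windows of Alas1, which rose (at 228 bases before its upstream start, and in the printed site), and of Alad and Urod, which fell. The NRF1 cores of Alas1 start 224 and 195 bases before its downstream start, and the one at 195 bases is printed. That printed core begins 29 bases after the upstream start of Alas1, so it lies before only the downstream start. An NRF1 core was also found in Uros, 47 bases before its upstream start. CACGTG was present in windows of Alad (at 105 bases, and at 28 bases before its other start), Urod (at 49 bases) and Uros (at 250 bases). It was absent from the windows of Alas1, Alas2, Cpox and Ppox. Over all tested genes with a window, 13.9% of the 1297 with CACGTG were lower in KO and 16.7% higher, against 16.1% lower and 12.7% higher among the 10310 without it. Among the 2366 genes with GATAA 18.7% were lower and 12.5% higher, against 15.1% lower and 13.3% higher among the 9241 without it. Among the 7738 with CACCC 16.8% were lower and 12.3% higher, against 13.9% lower and 14.9% higher among the 3869 without it. Among the 1588 with the NRF1 core 12.2% were lower and 15.7% higher, against 16.4% lower and 12.7% higher among the 10019 without it. These shares are descriptions, without a test.

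Of 14 genes that carry heme, porphyrins or their precursors across mitochondrial and other membranes, 5 rose, 1 fell and 8 did not pass, where 10.3% of all genes tested were higher and 13.0% lower. The list had a median log2 fold change of 0.31, where the median of all genes tested was −0.02. Abcb10, a transporter of the inner mitochondrial membrane needed for heme production in red cell precursors, had 6956, 5887 and 6539 normalised reads in KO and 3632, 3610 and 3022 in WT (0.92 ± 0.11 SE, adjusted p = 0.00177 in limma). Tspo, the translocator protein of the outer membrane, which binds porphyrins, rose to 171% of its WT mean (0.78, adjusted p = 0.00164). Tmem14c, which carries protoporphyrinogen into the matrix, rose by 0.50 on the log2 scale, a call lost without KO replicate 2 or 3 or WT replicate 1 or 2 (adjusted p up to 0.104, at 0.37 to 0.55). The mitochondrial iron importer Slc25a37 rose by 0.41 (adjusted p = 0.0418), and leaving out any library ended that call (adjusted p 0.0524 to 0.157). Slc48a1, a heme transporter of lysosomes named after its value was seen, rose by 0.42, and its call was lost when any library except KO replicate 1 was left out (adjusted p up to 0.108). Slc25a38, the carrier that brings glycine to the first step, had 1200, 1044 and 1123 in KO and 1046, 930 and 873 in WT, which did not pass (0.24, adjusted p = 0.217). Abcg2, an exporter that can carry porphyrins out of the cell, fell to 69.2% of its WT mean (−0.53, adjusted p = 0.0167).

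Of 11 genes that supply the first enzyme or act on it, 4 rose, 1 fell and 6 did not pass, against 10.3% higher and 13.0% lower of all genes tested, with a median of 0.15. Lonp1, a mitochondrial protease known to degrade ALAS1, had 8004, 8141 and 8245 normalised reads in KO and 4852, 5104 and 5220 in WT (log2 fold change 0.68 ± 0.08 SE, adjusted p = 0.00144 in limma). Clpp, the partner protease of the unfoldase that acts on the ALAS enzymes, rose to 153% (0.60), and Shmt2, which makes glycine in mitochondria, also to 153% (0.62). Suclg1, the alpha subunit of the enzyme that interconverts succinyl-CoA and succinate, was named after its value was seen and rose by 0.43. Ppargc1a, a coactivator that raises Alas1 in liver, had 0, 0 and 17.3 normalised reads in KO and 77.2, 55.2 and 46.4 in WT. It fell (−4.49, adjusted p = 0.025), was likewise named after its value was seen, and lost its call when any library except KO replicate 3 was left out (−4.65 to −3.79, adjusted p up to 0.0957).

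In heme breakdown and heme sensing, 3 of 12 genes fell and 9 did not pass, where 13.0% of all genes tested were lower, with a median of −0.16. Blvrb, biliverdin reductase B, had 410, 415 and 418 normalised reads in KO and 1118, 1211 and 1254 in WT (log2 fold change −1.52 ± 0.13 SE, adjusted p = 0.000643). Nr1d2, the heme-binding nuclear receptor REV-ERB beta, fell to 44.1% of its WT mean. Hmox1, the inducible heme oxygenase, had 113.6, 263 and 219 in KO and 328, 1013 and 521 in WT (−1.57, adjusted p = 0.0437). Its call was lost without KO replicate 1 or 3 or WT replicate 2 or 3 (−1.68 to −1.14, adjusted p up to 0.119). Macrophage markers were lower alongside, with sums over 5 genes of 7084 to 10406 in KO and 12424 to 18356 in WT and 3 of 5 called lower, and Mertk was at 0 in KO replicate 1. Their part in the fall of Hmox1 was not tested. Bach1, a repressor that heme releases from DNA, had 670, 543 and 488 in KO and 574, 593 and 712 in WT, with overlapping groups (−0.15, adjusted p = 0.599).

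Of 16 iron-sulfur cluster and iron-sensing genes, 2 rose, 1 fell and 13 did not pass, with a median of 0.14. The rises are near the 10.3% of all genes tested that were higher, and the fall is below the 13.0% that were lower. The mitochondrial chaperone Hspa9 rose to 157% of its WT mean (log2 fold change 0.65 ± 0.08 SE, adjusted p = 0.00192 in limma), and its co-chaperone Hscb fell to 62.1% (−0.69 ± 0.12 SE, adjusted p = 0.00571). Bola3, a late factor of cluster delivery, rose by 0.48, a call lost without KO replicate 3 (adjusted p = 0.0688). Of the 4 genes that make heme a or attach heme to cytochrome c, 2 rose and 2 did not pass, where 10.3% of all genes tested were higher, with a median of 0.32. Cycs, cytochrome c, rose to 151% (0.59), and Hccs, which attaches its heme, to 135% (0.43, lost without KO replicate 3 at an adjusted p of 0.0709). Cox10, which makes heme o, had 2519, 2307 and 2656 in KO and 2163, 2158 and 2153 in WT, which did not overlap and did not pass (0.21, adjusted p = 0.167).

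In the list of heme-binding enzymes and globins, 2 of 10 genes rose, 7 fell and 1, Cyba, did not pass, with a median of −0.78, where 10.3% of all genes tested were higher and 13.0% lower. The list also holds Prdx2, a red cell peroxiredoxin that uses a thiol and no heme. Cybb, the heme-bearing subunit of the phagocyte oxidase, had 17579, 13519 and 15474 normalised reads in KO and 7174, 7863 and 4547 in WT (1.28 ± 0.20 SE, adjusted p = 0.00468 in limma). The alpha globins Hba-a1 and Hba-a2 fell to 20.5% and 16.6% of their WT means. They are near-identical copies, so the split of reads between them is uncertain. Named after their values were seen, the beta globins Hbb-bs (−1.97) and Hbb-bt (−1.14), eosinophil peroxidase Epx (−2.56), catalase Cat (−0.41) and Prdx2 (−0.43) fell, and myeloperoxidase Mpo rose (0.37). Leaving out single libraries ended the calls of Hbb-bt, Epx, Cat, Prdx2 and Mpo in 1, 3, 4, 4 and 5 of 6 cases.

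**Figure D5:**
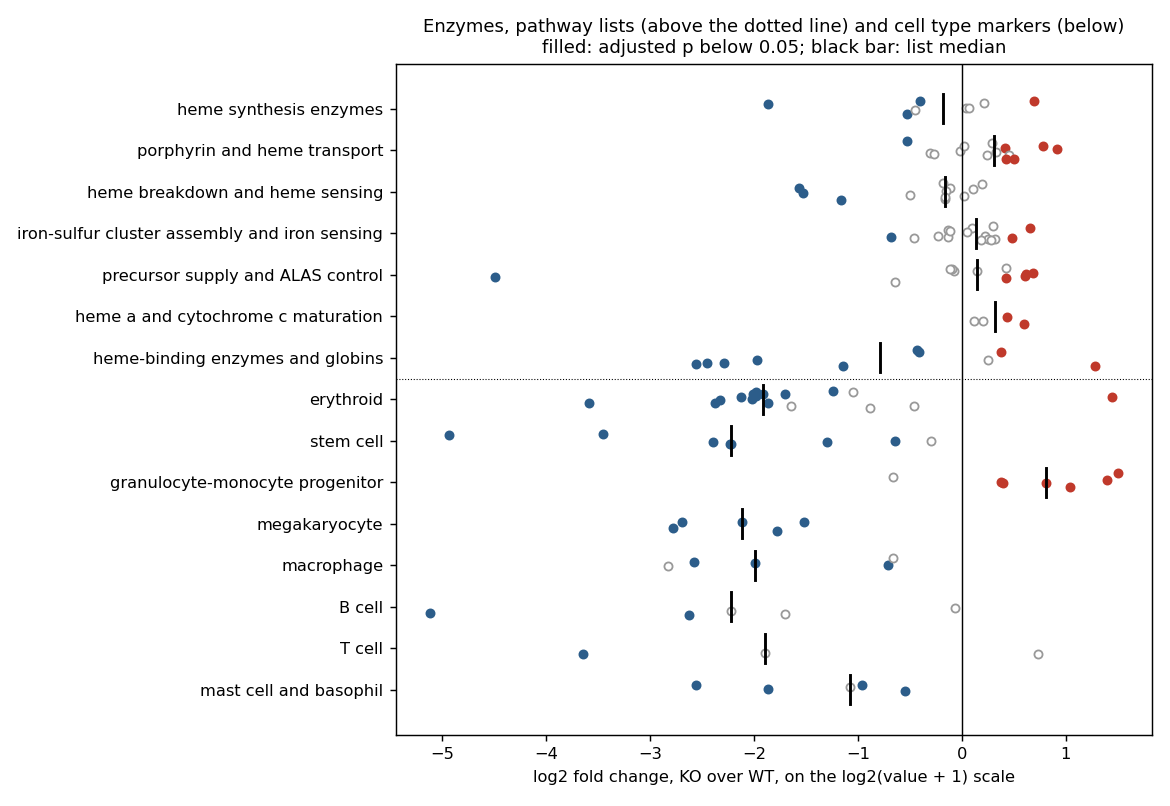
Log2 fold changes, KO over WT, on the log2(value + 1) scale, for the 8 enzymes and 6 pathway lists (above the dotted line) and 8 lists of cell type markers (below it), with 1 point per gene, filled where the adjusted p was below 0.05, and a black bar at each list's median. The erythroid markers have a median of −1.91 and the granulocyte-monocyte progenitor markers one of 0.81.

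Erythroid markers were lower in the same libraries. Of 17, 12 fell, 1 rose (Tfrc, the transferrin receptor, named after its value was seen) and 4 did not pass, with a median log2 fold change of −1.91 beside the −1.87 of Alas2. Of all genes tested, 13.0% were lower and 10.3% higher. Tfrc had a log2 fold change of 1.44, and its call was lost without KO replicate 3 or any of the WT replicates (adjusted p up to 0.0585). Klf1 and Gata1, the transcription factors of the erythroid program, fell to 22.7% and 25.7% of their WT means. The 17 markers summed to between 21775 and 36268 normalised reads in KO and between 55789 and 65399 in WT, and 0 of the 17 were at 0 in any library. Per 1000 normalised reads of these markers, Alas2 had 1.13, 0.515 and 1.25 in KO and 1.58, 2.44 and 0.998 in WT, so the groups overlapped. In a sum chosen after the values were seen, without the abundant Car2, Alas2 had 1.69, 0.656 and 1.73 in KO and 4.89, 5.76 and 2.76 in WT. With the rising Tfrc left out as well, it had 4.46, 4.70 and 7.60 in KO and 7.09, 7.47 and 3.54 in WT. Whether Alas2 differed against the erythroid markers thus turned on which markers were summed. The part of the lower erythroid markers in the falls of Alas2, Alad and Urod was not tested.

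The genes closest in pattern to the first 2 enzymes could not be the same, since Alas1 rose and Alas2 fell without overlap. Over the 6 libraries, Alas2 was most like Bmpr1a, a BMP receptor (Pearson r = 0.9927 across libraries of log2(value + 1)), Epb42, a red cell membrane protein (0.9900), and Hpgds, a prostaglandin D synthase (0.9888). Epb42 had 17.1, 15.7 and 33.7 normalised reads in KO and 93.6, 99.0 and 53.0 in WT, with KO replicate 3 and WT replicate 3 nearest each other, as for Alas2. Alas1 was most like Spi1, the myeloid transcription factor PU.1 (0.9991), Iars2, a mitochondrial tRNA synthetase (0.9991), and Ube2k, a ubiquitin-conjugating enzyme (0.9982). Spi1 had 17933, 15869 and 17862 in KO and 10441, 12512 and 12281 in WT. Of 11296 genes compared, 444 had an r above 0.9 with Alas2 and 1456 with Alas1, since any gene that separates the genotypes shares much of the pattern.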

How the data were processed

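Poly(A) RNA was made into libraries with a VAHTS v2 kit, per the labels' protocols, and the submitters' processing notes list HISAT2, StringTie, mm8 and mm10. The sources used here do not give counting or strandedness. The deposited files hold 1 signal per gene and library, under a header that says only expression. All values (100%) were whole multiples of a library's step to within 0.01 of a read, so whole reads were recovered, and the implied size factors equal median-of-ratios factors of those reads to within 0.0001%. Coordinates equal GENCODE M21 (GRCm38) for the 49035 identifiers of the same version.

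Genes at 1 or more in 3 or more of the 6 libraries entered limma 3.58.1 in R 4.3.3 (log2(value + 1), intensity trend, two-sided, Benjamini-Hochberg over 20136 genes). Fold changes on this scale understate those of low genes. On recovered reads, edgeR 4.0.16 called 2075 genes higher and 2496 lower, and DESeq2 1.42.0 was a further alternative. The procedure was run on simulated data with the same spread setting for every gene and fewer changed genes than were called here. That run does not measure the errors among the calls in these data. Replicates differed beyond sampling noise (chi-square per degree of freedom 38.0 to 80.5). Named were the enzymes, Ppp2ca, 9 listed genes, the 3 genes with the smallest p in each of 6 pathway lists, and the 3 genes most like Alas1 and Alas2 among those with a mean of at least 50. An older name served for 2 listed symbols. The members, lists and motifs were chosen with earlier results of these data known.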

Additional observations from a re-analysis of the deposited data

How the results depend on the processing

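Of the 19 alternatives, limma without an intensity trend left 1 enzyme lower in place of 3 and 1071 genes higher in place of 2069, library quality weights gave 3198 genes higher and equal library totals 1337. Leaving out 1 library at a time gave 1 to 2 enzymes higher and 1 to 3 lower, and 978 to 1808 genes higher and 1617 to 2548 lower over all genes. With edgeR and with DESeq2 on recovered reads, 1 enzyme was higher and 3 were lower, as in limma. The sign of Cpox turned with equal library totals (−0.10) and quantile normalization (−0.021), and its log2 fold change ranged from −0.092 to 0.16 with 1 library left out. That of Ppox turned with equal library totals (−0.076) and ranged from −0.00026 to 0.10 with 1 library left out. The cause was not tested. Alas1, Alas2, Alad, Uros, Urod and Fech kept their direction in all 19, and the difference of the Alas2 to Alas1 ratio in the 7 alternatives run for it. Same-numbered libraries showed no shift shared across genes (correlations of their deviations from −0.0234 to −0.0107). That cannot show that they were unpaired, and the labels do not say whether the shared replicate numbers pair them. With the replicate number as a block, 1 enzyme was higher and 2 were lower, with Alas2 at an adjusted p of 0.0590, and 1705 genes were higher and 2157 lower. Of the 8 enzymes, Alas2 had the fewest reads, 19 to 143 per library, and the largest standard error.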
